A study of Mus musculus with 62 samples.

Results

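The dorsal hippocampus (dHPC) of mice given saline on 10 days was compared with that of mice given saline once, to ask what repeated intraperitoneal injection alone does to gene expression. Members were all libraries labelled as dHPC of the acute saline group (1 injection, replicates 2, 4 and 5) or of the chronic saline group (10 injections, replicates 2, 5 and 6), which makes 6 of the 62 libraries of the series. All were from male C57BL/6J mice of 8–10 weeks killed 4 h after the last injection, each replicate being 1 mouse, with no drug and no genetic change in either group. The same region of mice given 2 g/kg ethanol once (acute ethanol, n = 4) or on 10 days (chronic ethanol, n = 3) served as a second comparison of 10 with 1 injection that shares no library with the first. In those mice the number of injections is also the number of ethanol doses, so the 2 cannot be told apart there. The cortex and the ventral hippocampus (vHPC) of saline mice were set beside the dHPC. The vHPC libraries were made with another, directional kit and read on another sequencer with longer reads. Those of saline mice held 11421520 to 14899467 counts. Values of vHPC are therefore set side by side only. In each saline group 2 of the 3 dHPC mice also gave a cortex library, and 2 of the 3 a vHPC library. Tissue was cored from slices of frozen brain, so each library mixes the cell types of the core and of whatever borders it. Handling differed in number of days as well as injections, and the labels give no dissection dates, so injection number, days of handling and day of collection cannot be told apart.

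Handling and injection are stressors for a mouse. A first injection releases corticosterone, and glucocorticoid-bound receptors then raise a known set of target genes in brain, while excited hippocampal neurons switch on immediate early genes such as Fos and Arc within minutes to hours. With repetition such responses often become smaller, which is called habituation. Slower processes in the hippocampus that stress and experience are known to touch include myelination by oligodendrocytes, the circadian clock and the birth of granule neurons in the dentate gyrus.

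The 6 libraries held 44583920 to 64973064 counts on genes. Some stood apart in tissue content (the plot of marker lists by library). Chronic saline replicate 5 had a summed level of 16 striatal projection neuron genes of 3884 CPM, that is read counts scaled to the size of each library, 6.40 times the median of the other dHPC libraries, against 971 and 368 CPM in the other chronic and 867 to 1353 CPM in the acute saline libraries. Chronic saline replicate 6 had 43.3 CPM of 12 choroid plexus genes, against 2131 to 3475 CPM in the other saline libraries. Acute saline replicate 4 had 2078 CPM of 5 blood genes, 3.00 times the median of the other libraries. Hippocampal identity was present throughout: dentate granule neuron genes summed to 307 to 482 CPM and CA1 pyramidal neuron genes to 395 to 590 CPM in the 6 libraries. Values that rest on these libraries are given without them below.

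**Figure D1:**
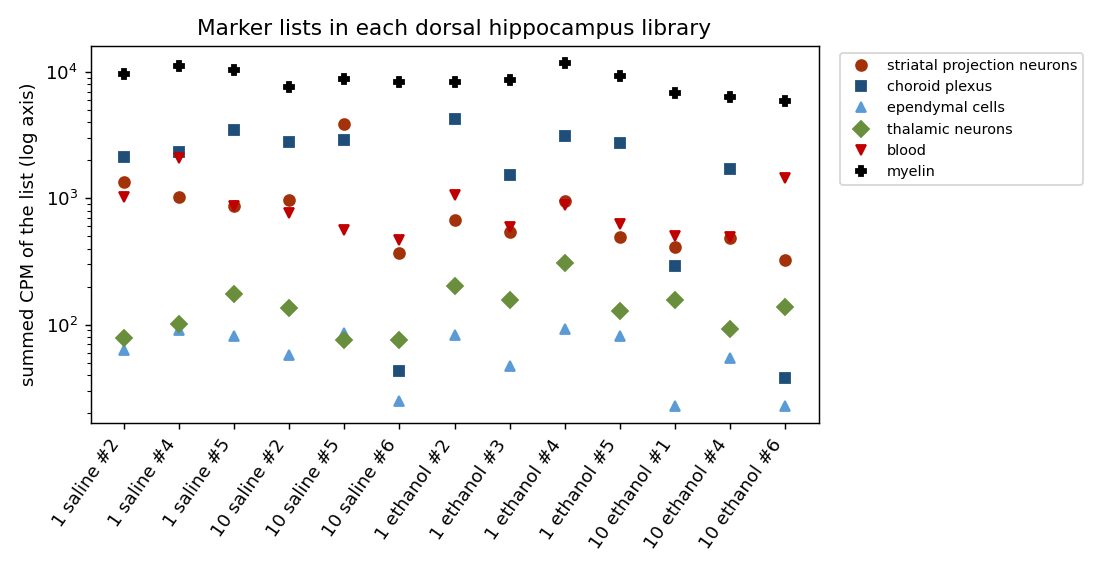
Summed level (CPM, log axis) of 6 marker lists in each of the 13 dHPC libraries, 1 symbol per list and library. Striatal genes are at 3884 CPM in chronic saline replicate 5, choroid plexus genes are at 43.3 CPM in chronic saline replicate 6, and myelin genes are lower in all 3 chronic than in all 3 acute saline libraries.

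Few genes passed the test across all genes. With edgeR's quasi-likelihood test at an FDR below 0.1, 1 of 26167 tested genes (0.00382%) differed between 10 and 1 saline injections, the pseudogene Pisd-ps1. DESeq2's Wald test on the same counts passed 144 genes (0.55%), 77 higher (0.294%) and 67 lower (0.256%) after 10 injections. At an unadjusted p under 0.05 edgeR gave 2014 genes (7.7%), 1001 of them higher (3.83%) and 1013 lower (3.87%), and 15.1% of all tested genes had groups that did not overlap. The 2 directions in DESeq2 held different kinds of gene. Of the 77 higher genes 41 were processed pseudogenes and 21 were protein-coding, while of the 67 lower genes 63 were protein-coding and 1 was a processed pseudogene. Without chronic saline replicate 5 DESeq2 passed 160 higher and 281 lower genes, and without replicate 6 it passed 157 and 198. Each other library also moved the count, to 78 genes without acute saline replicate 2, 53 without replicate 4, 58 without replicate 5 and 90 without chronic saline replicate 2.

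Pisd-ps1 was at 8.83, 8.95 and 8.43 CPM in the acute saline libraries and at 15.5, 16.5 and 15.7 CPM in the chronic ones. Each chronic library therefore stood well above each acute library, and the gene rose by 0.86 ± 0.07 (log2 fold change ± SE, edgeR, FDR = 0.0825; DESeq2 FDR = 1.85e-12). It lies at chr11:3076006-3081004 (GRCm39) and is annotated as a transcribed, unprocessed copy of Pisd, the gene of the mitochondrial enzyme that makes phosphatidylethanolamine from phosphatidylserine. Pisd itself, at chr5:32893645-32942929, was at 36.8, 37.2 and 35.8 CPM in acute and 38.4, 34.6 and 38.2 CPM in chronic saline libraries, a log2 difference of 0.02 ± 0.06. The ethanol mice did not show the same separation. Pisd-ps1 was at 8.95, 10.9, 8.34 and 16.6 CPM after 1 and at 13.0, 14.2 and 8.89 CPM after 10 ethanol injections. The ethanol groups thus overlapped, and libraries at 10.9, 13.0 and 14.2 CPM lay between the levels of the saline groups. The change after saline exceeded that after ethanol by 0.76 ± 0.29 on the log2 scale, with an unadjusted p of 0.0215 in edgeR and an FDR of 0.969. In the cortex the saline difference was 0.60 ± 0.17 (edgeR FDR = 0.503), and in vHPC 0.80 ± 0.27 (FDR = 0.356). These regions came in part from the same mice, 2 of 3 in each group, so their values are not independent of those in dHPC.

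Several of the leading genes are copies of highly expressed genes, and their reads can be told from those of the parent gene only where the sequences differ. Pairs are printed here as 90-base stretches of the annotated transcripts (GENCODE M39, GRCm39), chosen within the parent's coding sequence as the stretch with the most differences, with the differing bases in capitals. They show how many bases separate a pseudogene read from a parent read even where the copies differ most. Rpsa encodes a protein of the small ribosomal subunit, and its copy Rpsa-ps5 lies at chr11:28906724-28907608. Eef1a1 encodes the elongation factor that brings aminoacyl-tRNA to the ribosome, and Eef1a1-ps1 lies at chr19:17903987-17905373.
Pisd-ps1: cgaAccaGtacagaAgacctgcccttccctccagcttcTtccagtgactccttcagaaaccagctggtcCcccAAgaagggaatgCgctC
Pisd: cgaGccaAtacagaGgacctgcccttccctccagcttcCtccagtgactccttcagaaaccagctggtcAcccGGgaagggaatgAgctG
Rpsa-ps5: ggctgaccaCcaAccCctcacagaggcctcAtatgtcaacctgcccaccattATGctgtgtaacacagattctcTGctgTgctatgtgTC
Rpsa: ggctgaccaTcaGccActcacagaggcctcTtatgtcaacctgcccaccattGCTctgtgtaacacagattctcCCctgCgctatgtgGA
Eef1a1-ps1: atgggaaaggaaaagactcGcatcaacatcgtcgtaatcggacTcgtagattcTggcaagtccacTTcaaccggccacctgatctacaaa
Eef1a1: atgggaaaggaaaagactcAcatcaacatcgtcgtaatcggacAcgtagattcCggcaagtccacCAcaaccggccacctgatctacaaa

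Over their best local alignment Pisd-ps1 was 94.0%, Rpsa-ps5 92.4% and Eef1a1-ps1 97.3% identical to the parent transcript. Of all 75-base windows of the pseudogene, the length of 1 read of a pair, 3.96% of Pisd-ps1, 10.7% of Rpsa-ps5 and 12.3% of Eef1a1-ps1 were also found unchanged in the parent. A pair that maps to several places was counted for each of them, so the counts of pseudogene and parent are not independent.

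Rpsa-ps5 was at 1.98, 1.95 and 1.82 CPM in acute and at 4.08, 3.53 and 3.93 CPM in chronic saline libraries, a difference of 1.01 ± 0.13 on the log2 scale (edgeR FDR = 0.411, DESeq2 FDR = 0.000333). The groups were far apart, whereas Rpsa differed by 0.00 ± 0.05. Eef1a1-ps1 was at 22.5, 19.4 and 24 CPM against 31.9, 36.5 and 33.9 CPM, a difference of 0.63 ± 0.09 (DESeq2 FDR = 1.03e-05), and Eef1a1 differed by 0.04 ± 0.05. Tubb2a-ps2 and Rps2-ps7, copies of a beta-tubulin and of another ribosomal protein gene, differed by 0.49 ± 0.10 and 0.70 ± 0.15, and their parents Tubb2a and Rps2 by 0.10 ± 0.12 and 0.05 ± 0.06.

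The 2009 tested processed pseudogenes, copies of spliced mRNAs pasted back into the genome, had a median log2 fold change of 0.16 after 10 saline injections, and 69.4% of them were higher. The 16424 protein-coding genes had a median of -0.01. At an unadjusted p under 0.05 in edgeR, 263 processed pseudogenes were higher and 29 lower, against 515 and 778 protein-coding genes. Over all tested genes 3.83% were higher and 3.87% lower at that p. In every chronic saline library the median pseudogene was at 1.08 to 1.13 times the mean of the acute saline libraries, which themselves ran from 0.93 to 1.05. In the other comparisons the median over processed pseudogenes was 0.04 after ethanol, 0.02 in the cortex and -0.01 in vHPC. The vHPC value rests on 1197 tested processed pseudogenes and on another kit and read length, so it is not a like comparison. In dHPC of saline mice the median was 0.13 without chronic saline replicate 5 and 0.14 without replicate 6. Removing each library's trend with exon length brought it to 0.09.

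The higher levels were uneven among pseudogenes (the plot of cumulative fold changes). Where no 75-base window was found unchanged in a protein-coding transcript (336 pseudogenes), the median was 0.05 and 53.3% were higher. Where some but under 50% of windows were shared (1206 pseudogenes), it was 0.27, 76.2% were higher and DESeq2 passed 39. Over all tested genes DESeq2 passed 0.294% as higher. Where 50% or more were shared (466 pseudogenes), the median was again 0.05, but 63.5% were higher, and DESeq2 passed 1. The part of read placement in this pattern was not tested.

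**Figure D2:**
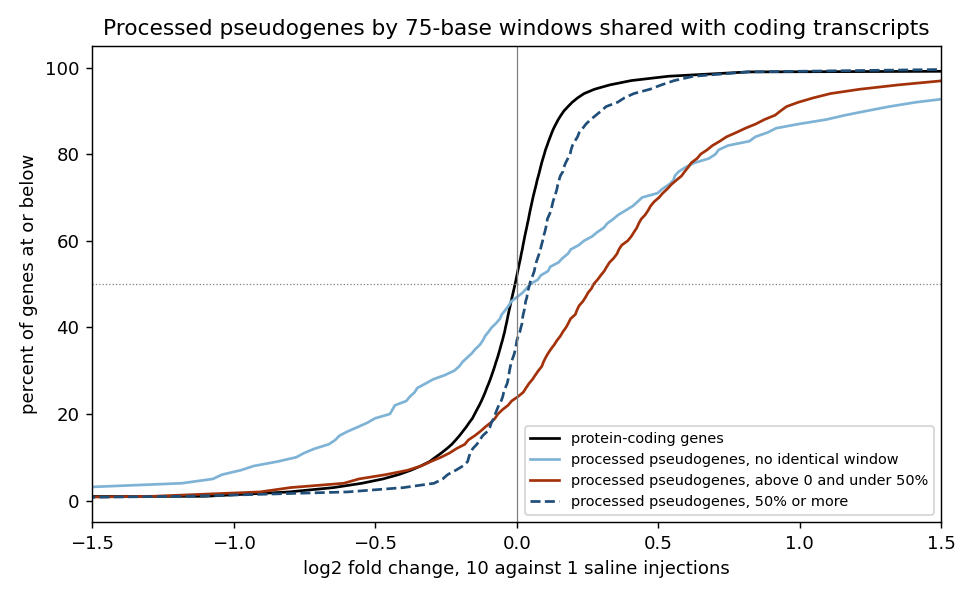
Percent of genes at or below each log2 fold change (10 against 1 saline injections) for protein-coding genes and for processed pseudogenes in 3 classes of shared 75-base windows. The class with some but under 50% of windows shared lies to the right, with a median of 0.27, and the other classes cross 50% near 0.

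Of the other genes with the smallest p-values in both directions (the plot of leading genes), most differed by less than 0.5 on the log2 scale. They were ranked on p, and so their lack of overlap in saline mice is a description. Pisd-ps1 was the only gene past edgeR's FDR in saline mice, so none of them passed it there. Gkn3, which in brain marks arterial endothelium, was at 0.54, 0.78 and 0.77 CPM in acute and 1.87, 2.43 and 1.70 CPM in chronic saline libraries, a difference of 1.53 ± 0.23 (edgeR FDR = 0.432). After ethanol it was at 0.49 to 1.25 CPM and 1.46 to 2.95 CPM, again without overlap, and there it rose by 1.44 ± 0.31 (FDR = 0.0913). That call, like all 276 that edgeR made between the ethanol groups, was lost (0 genes) without acute ethanol replicate 4 or 5 or chronic ethanol replicate 1 or 6. Its difference after saline was 0.94 ± 0.21 in the cortex and 1.51 ± 0.44 in vHPC, regions taken in part from the same mice.

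Among the higher protein-coding genes was Atp5me, a subunit of mitochondrial ATP synthase. It was at 53.9, 56.7 and 55.1 CPM against 70.4, 65.1 and 66.5 CPM (0.29 ± 0.05, DESeq2 FDR = 0.0219). Others were the kinase gene Lmtk3 (0.28 ± 0.05), Caly, which encodes calcyon (0.26 ± 0.05), Tmem191 (0.32 ± 0.05) and Dennd6b (0.34 ± 0.06). The essential NMDA receptor subunit gene Grin1 was at 432, 433 and 445 CPM against 508, 508 and 501 CPM, a difference of 0.21 ± 0.05 (edgeR FDR = 0.507, DESeq2 FDR = 0.026). Chronic libraries were all higher, by little and with little spread. Its antisense neighbour Grin1os showed 0.21 ± 0.04, and in libraries that keep no strand their reads cannot be told apart. The same limit holds for Tmem191, Lmtk3, Dennd6b, Mast4, Cryab and Thbs1, each of which overlaps an exon on the other strand.

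Lower after 10 saline injections were Mast4, a microtubule-associated kinase gene, with 84.0, 83.6 and 82.2 CPM in acute and 59.5, 60.5 and 66.8 CPM in chronic libraries (-0.42 ± 0.06, DESeq2 FDR = 5.47e-05), and Cybrd1, a ferric reductase gene, with 4.4, 4.65 and 4.6 CPM against 2.59, 2.63 and 2.81 CPM (-0.77 ± 0.11, DESeq2 FDR = 0.00498). Neither separated the ethanol groups, where the differences were -0.14 ± 0.10 and -0.32 ± 0.16. Thbs1, which encodes the secreted synaptogenic protein thrombospondin 1, showed -0.82 ± 0.14, and Rc3h1, an mRNA decay factor gene, -0.49 ± 0.09. Lnpep (-0.35 ± 0.06), Pld1 (-0.46 ± 0.10) and Snx33 (-0.44 ± 0.09) act in membrane traffic and phospholipid turnover. Also lower were Cryab, Mal, Scd1 and Tmem88b. Mal encodes a myelin protein, Cryab a small heat shock protein abundant in oligodendrocytes, and Scd1 a fatty acid desaturase.

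**Figure D3:**
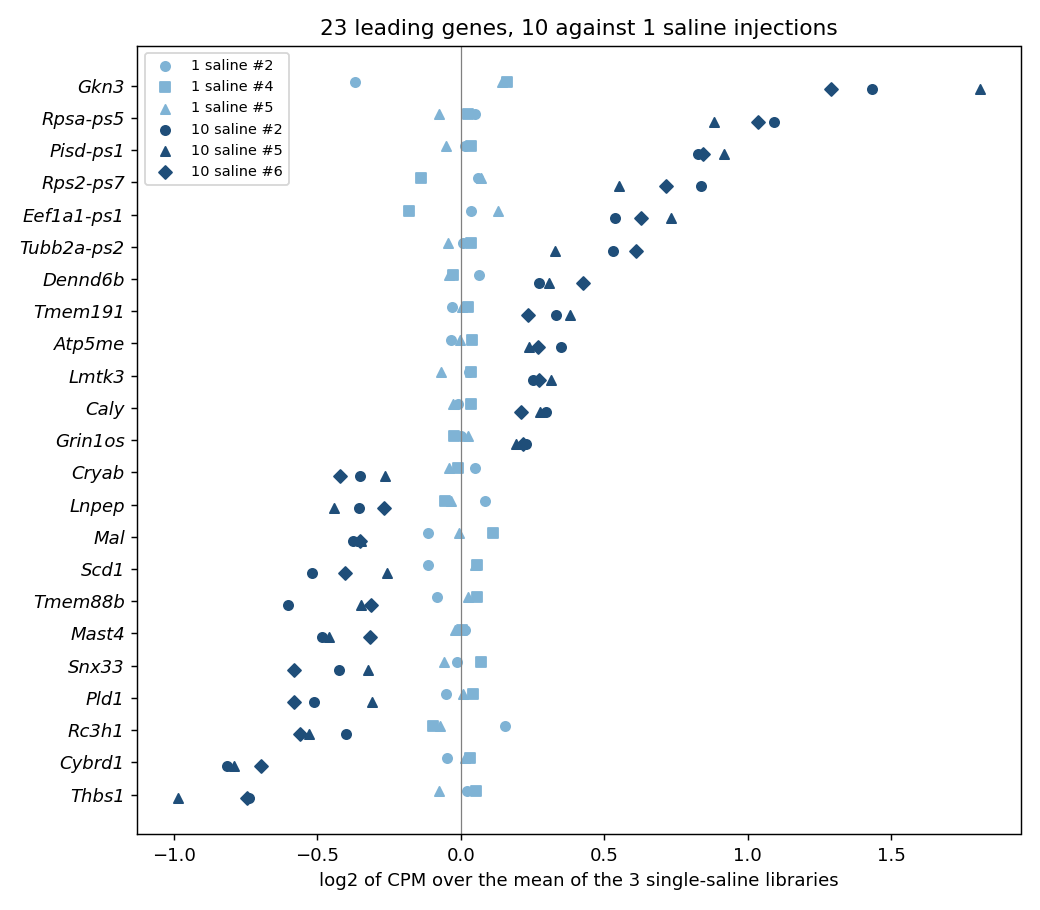
CPM of 23 leading genes in each of the 6 saline libraries, as log2 of the ratio to the mean of the acute saline libraries. Light symbols (1 injection) cluster at 0, and dark symbols (10 injections) lie to the right for 12 and to the left for 11 genes, from Gkn3 (1.53) to Thbs1 (-0.82).

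Oligodendrocytes wrap axons in myelin, a membrane built from a few very abundant proteins and galactolipids. All 15 genes of the myelin list were lower after 10 than after 1 saline injection, with a median of -0.34, and 14 of the 15 had groups that did not overlap, against 7.08% of all tested genes that were lower without overlap. None passed edgeR's FDR. DESeq2 passed 11 of 15, against 0.256% of all genes in that direction. Mbp, which compacts the myelin sheath, was at 3740, 4239 and 3976 CPM in acute and at 2839, 3418 and 3148 CPM in chronic saline libraries (-0.35 ± 0.08). Mal was at 382, 447 and 411 CPM against 318, 324 and 324 CPM (-0.36 ± 0.06, edgeR FDR = 0.457, DESeq2 FDR = 0.00192). In both genes the lowest acute library exceeded the highest chronic library.

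The galactolipid enzyme genes Ugt8a and Fa2h differed by -0.48 ± 0.11 and -0.39 ± 0.09, the tight junction gene Cldn11 by -0.34 ± 0.08, and the adhesion molecule genes Mog and Mag by -0.35 ± 0.08 and -0.26 ± 0.08. Opalin, the smallest difference of the list, was at -0.21 ± 0.09 and its groups overlapped. The list had medians of -0.37 without chronic saline replicate 5 and -0.36 without replicate 6, and of -0.28 without acute saline replicate 4, where DESeq2 passed 1 of 15 and not 11. It passed 2 without acute saline replicate 5, 3 without chronic saline replicate 2 and 7 without acute saline replicate 2. Without chronic saline replicate 5, the library with striatal tissue, it passed 13 (281 of 25802 of all genes as lower). Without chronic saline replicate 6 it passed 10 (198 of 25921). All 10 genes of the oligodendrocyte precursor list were also lower, with a median of -0.16. Bcas1, a gene of newly forming oligodendrocytes, was at 260, 283 and 267 CPM against 209, 243 and 227 CPM (-0.26 ± 0.07), and Gpr17 at 55.4, 57.3 and 53.9 CPM against 42.0, 47.1 and 50.9 CPM (-0.25 ± 0.08).

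The ethanol mice, whose 10 injections were also 10 doses of ethanol, gave the same direction in libraries that the saline comparison did not use. There all 15 myelin genes were lower after 10 injections, with a median of -0.49, and edgeR passed 8 (1.06% of all genes passed, 0.971% as lower, and 4.56% passed DESeq2 there). It passed 0 of the 15 without acute ethanol replicate 4 or 5 or chronic ethanol replicate 1 or 6, and all 15 stayed lower, with medians from -0.43 to -0.57, whichever of the 7 libraries was left out. Mal fell by 0.61 ± 0.13 on the log2 scale (FDR = 0.0951), from 348 to 538 CPM in acute to 255 to 287 CPM in chronic ethanol libraries. The difference between the ethanol and the saline change was -0.25 ± 0.17 for Mal (edgeR FDR = 0.969). Summed over the list, myelin genes made 9690 to 11130 CPM after 1 saline injection, 7547 to 8724 CPM after 10, 8279 to 11749 CPM after 1 ethanol injection and 5940 to 6803 CPM after 10. Acute ethanol libraries thus reached from the chronic saline range to above the acute saline range. All chronic ethanol libraries lay under the chronic saline range. The paper reports enrichment for myelination among dHPC genes lowered by chronic ethanol against saline. Ethanol exposure and injection number cannot be told apart in the ethanol comparison. The myelin median was -0.64 in vHPC, from mice of which 2 of 3 in each group also gave dHPC libraries, but 0 of the 15 genes had groups without overlap there and 0 had an unadjusted p under 0.05 in edgeR. In vHPC choroid plexus genes had a median of -3.39 and thalamic neuron genes one of -1.94. In the cortex the myelin median was -0.01. Fewer oligodendrocytes or less white matter in the core and less RNA per cell cannot be told apart in bulk tissue. Genes of bordering tissue also varied between libraries: thalamic neuron genes were at 78.4 to 176 CPM in acute and 74.9 to 137 CPM in chronic saline libraries, and ependymal genes at 63.5 to 91.3 and 24.7 to 85.7 CPM. In the ethanol comparison all tested genes of 4 such lists were lower after 10 injections, with medians of -2.08 for choroid plexus, -1.46 for ependymal cells, -0.92 for striatal and -0.65 for thalamic neurons, each further from 0 than the myelin median. The part of bordering tissue in the myelin differences after saline and after ethanol was not tested.

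**Figure D4:**
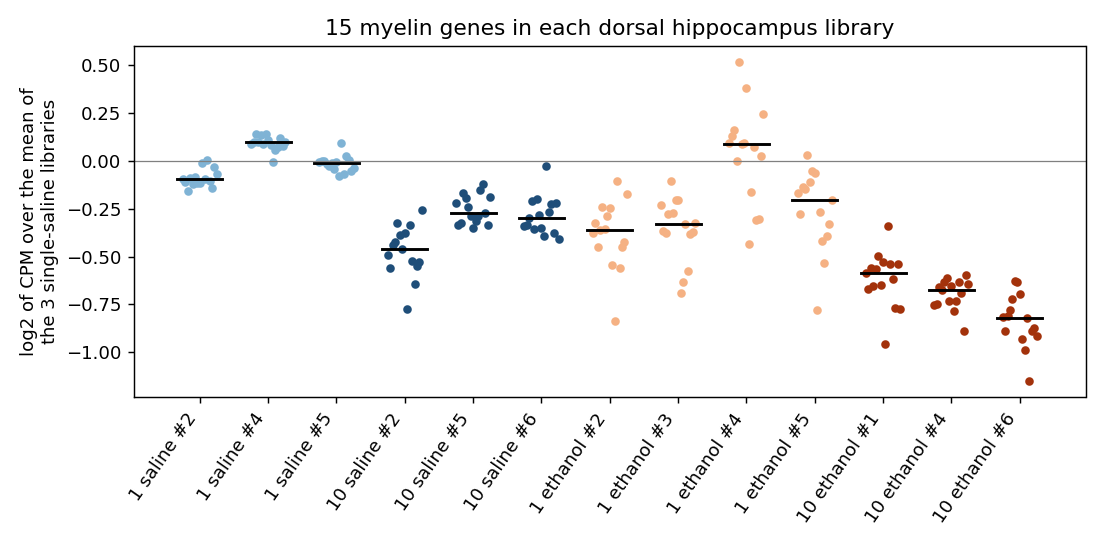
The 15 myelin genes in all 13 dHPC libraries, as log2 of CPM over the mean of the acute saline libraries, 1 point per gene and a bar at the median of each library. All 3 chronic saline medians lie under all 3 acute saline medians, and the chronic ethanol libraries lie lowest.

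Lower genes can be followed into the ethanol mice. Of the 63 protein-coding genes that DESeq2 passed as lower after 10 saline injections, 61 were also lower after 10 ethanol injections. The medians over the 63 were -0.37 after saline and -0.36 after ethanol. In the ethanol comparison edgeR passed 19 of them, all as lower, against 0.971% of all genes. Of the 63, 11 were on the myelin list of 15 genes, and the rest were not sorted by cell type. Among the other 52, 50 were lower after ethanol, with a median of -0.32, and edgeR passed 12, and 0 without acute ethanol replicate 4 or 5 or chronic ethanol replicate 1 or 6. Over all 25369 genes tested in both, 49.9% were lower after ethanol. Of the 21 protein-coding genes passed as higher, 16 were higher after ethanol with a median of 0.08 against 0.29, and edgeR passed 0 there (0 also by DESeq2). The 41 processed pseudogenes passed as higher had a median of 0.19 after ethanol against 0.59 after saline.

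Immediate early genes were lower or little different after 10 saline injections. Of 29 tested, 22 were lower, with a median of -0.16, and 6 were lower at an unadjusted p under 0.05 (3.87% of all genes). That count was 2 without acute saline replicate 2 or 4, where 772 of 25608 and 677 of 25861 of all genes were lower at that p. It was 10 without acute saline replicate 5 (755 of 25664 of all genes) and 11 without chronic saline replicate 6 (1308 of 25921). The median ran from -0.092 without acute saline replicate 2 to -0.23 without acute saline replicate 5. Egr2, a zinc-finger transcription factor gene, was at 7.99, 3.24 and 2.53 CPM in acute and 1.43, 2.10 and 1.34 CPM in chronic saline libraries, a difference of -1.51 ± 0.43 (edgeR FDR = 0.572, DESeq2 FDR = 0.0241). The groups did not overlap, but acute replicate 2 was far above the rest, and without it the difference was -0.83. Fos was at 23.6, 17.7 and 10.3 CPM against 7.03, 4.4 and 10.4 CPM, with a difference of -1.25 ± 0.36 (FDR = 0.575). Its groups met at about 10 CPM. Arc, whose product acts at synapses, was at 231, 181 and 99.8 CPM against 100.02, 82.5 and 124 CPM (-0.74 ± 0.28). Npas4, an activity-dependent regulator of inhibitory synapses, was at 14.7, 13.2 and 18.6 CPM against 10.6, 5.94 and 13.7 CPM (-0.62 ± 0.27). Egr3, Ier5 and Gadd45b were within 0.1 of no difference.

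In the cortex all 29 were lower after 10 saline injections, with a median of -0.60, with Arc at -1.61 ± 0.25 (FDR = 0.134). The Arc difference was smaller in size in dHPC than in the cortex, by 0.88 on the log2 scale with an edgeR FDR of 0.788, so a difference between the regions was not shown. Of the 6 mice behind each comparison, 4 gave both tissues. After ethanol the dHPC median was -0.13, with Fos from 9.18 to 27.5 CPM after 1 and 2.49 to 17.6 CPM after 10 injections.

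Most clock genes were on the higher side. The hour of day at which the mice were killed is not given, and its part was not tested. The clock is a feedback loop in which CLOCK and BMAL1 drive Per and Cry genes, whose products then stop CLOCK and BMAL1, and output genes such as Dbp and Ciart follow the same drive. Of 19 clock genes 13 were higher, with a median of 0.10, 5 of them without overlap between the groups (8.01% of all genes were higher without overlap). The median was 0.060 without acute saline replicate 5 and 0.067 without chronic saline replicate 5, each with 11 of 19 higher, and 0.16 without chronic saline replicate 2. Ciart was at 6.70, 10.0 and 7.36 CPM in acute and 11, 13.4 and 11.3 CPM in chronic saline libraries, a difference of 0.56 ± 0.16 (DESeq2 FDR = 0.0985). Per2 was at 25.4, 29.6 and 23.9 CPM against 30.1, 43.3 and 34.7 CPM (0.45 ± 0.14). Dbp was at 63.8, 75.7 and 64.3 CPM against 77.4, 116 and 81.4 CPM (0.43 ± 0.15). Chronic saline replicate 5, the library with striatal tissue, was highest in all 3, and without it the differences were 0.47 for Ciart, 0.30 for Per2 and 0.23 for Dbp. Cry2 was higher by 0.16 ± 0.05 and Clock lower by 0.13 ± 0.05 on the log2 scale at unadjusted p-values of 0.014 and 0.0301 in edgeR, and the repressor gene Nr1d1 was at 178, 191 and 186 CPM against 194, 199.9 and 200.3 CPM. Per1 was at 59.3, 62.5 and 44.8 CPM against 57.8, 65.7 and 64.3 CPM (0.17 ± 0.12), with groups that overlapped.

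After ethanol the clock list had a median of -0.03. Dbp was at 66.6 to 79.0 CPM after 1 and 67.5 to 70.7 CPM after 10 ethanol injections, and the saline and ethanol changes in Dbp differed by -0.52 ± 0.17 (unadjusted p = 0.00786, edgeR FDR = 0.969). For Ciart this difference was -0.74 ± 0.25 and for Per2 -0.49 ± 0.24, at the same FDR. No gene passed the FDR in this test of the difference (0 of 26850 by edgeR, 2 by DESeq2, 1202 or 4.48% at an unadjusted p under 0.05).

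The promoters of the 2 genes with opposite signs that DESeq2 passed in these lists are shown because both classes are known for a response element near the start site. Sequences are RefSeq's for GRCm38.p6, another build than that of the counts, and hold the 250 bases upstream of the annotated start, with matches in capitals. In Ciart the capitals mark CACGTG, the E-box bound by CLOCK and BMAL1, at chr3:95882229-95882478 on the minus strand, and 6.02% of 32851 promoter windows held it on either strand. In Egr2 they mark a CArG box, the element bound by serum response factor, at chr10:67537680-67537929 on the plus strand, the most downstream of its annotated windows, and 1.47% of windows held one. In all, 16 windows of 11 clock and immediate early genes were searched. CACGTG was also in a window of Per1, but not in those of Dbp, Nr1d1 or Cry2. No CArG box was in the windows of Fos, Btg2, Junb, Dusp1 or Npas4. Elements further upstream or within a gene lie outside these 250 bases, so an absence here does not show that a gene lacks one. Dusp1 and an upstream window of Egr2 held CACGTG, so the elements did not sort the 2 classes within these windows. TGACGTCA and TTATGTAA were searched too, and TGACGTCA was in the windows of Btg2 and Dusp1. The matches say nothing on binding here.
Ciart: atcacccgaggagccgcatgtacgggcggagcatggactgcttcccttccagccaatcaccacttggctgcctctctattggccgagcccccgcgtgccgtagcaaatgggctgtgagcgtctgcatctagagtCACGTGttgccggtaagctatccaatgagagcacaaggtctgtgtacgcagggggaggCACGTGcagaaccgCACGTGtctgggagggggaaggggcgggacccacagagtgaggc
Egr2: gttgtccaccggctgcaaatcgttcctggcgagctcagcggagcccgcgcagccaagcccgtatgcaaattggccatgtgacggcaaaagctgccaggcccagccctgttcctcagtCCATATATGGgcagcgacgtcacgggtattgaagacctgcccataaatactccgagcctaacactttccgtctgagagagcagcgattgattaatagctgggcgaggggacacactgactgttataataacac

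**Figure D5:**
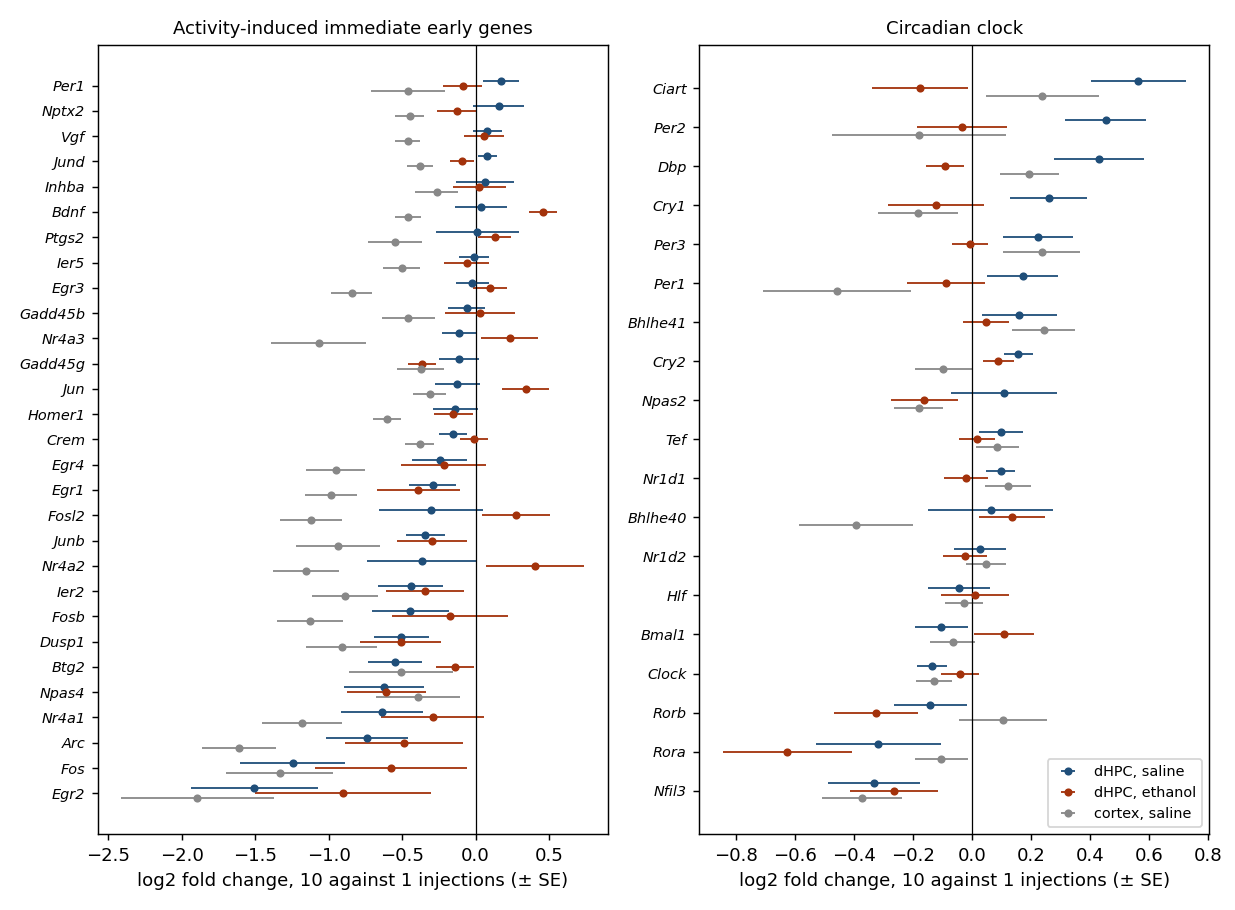
Log2 fold change ± SE (10 against 1 injections) of the immediate early genes (left) and clock genes (right) in dHPC of saline mice (n = 3 and 3), dHPC of ethanol mice (n = 4 and 3) and cortex of saline mice (n = 3 and 3). Fos, Egr2 and Arc lie lowest in dHPC after saline, and Ciart, Per2 and Dbp highest.

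Glucocorticoid targets differed by amounts that depended on single libraries. Of 19 tested, 15 were lower, with a median of -0.13, 0 passed either tool's FDR, and 2 were lower at an unadjusted p under 0.05 in edgeR (3.87% of all genes). Without chronic saline replicate 5 the median was -0.034 and 9 of 19 were higher. Without acute saline replicate 5 it was -0.25, and 18 of 19 were lower. There 5 were lower at an unadjusted p under 0.05 in edgeR, against 755 of 25664 of all genes. DESeq2 passed 1 there, the MAP kinase phosphatase gene Dusp1, named here after its values were seen. Fkbp5, a feedback regulator of the glucocorticoid receptor, was at 65.3, 77.0 and 59.7 CPM in acute and 71.4, 57.9 and 66.0 CPM in chronic saline libraries (-0.05 ± 0.11). Sgk1, a kinase gene induced by corticosteroids, was at 96.8, 68.3 and 63.2 CPM against 93.1, 68.7 and 71.3 CPM (0.03 ± 0.17). Both groups spanned the same range in these genes. Plin4, a lipid droplet coat gene, was the exception at 16.4, 31.4 and 14.6 CPM against 7.95, 13.1 and 6.40 CPM (-1.18 ± 0.34, edgeR FDR = 0.575), with all chronic libraries under all acute ones. After ethanol Plin4 fell by 1.24 ± 0.20 on the log2 scale (FDR = 0.0653), and the list median was -0.35 with 5 genes past edgeR's FDR, all lower (0.971% of all genes passed as lower there, and 0 genes without acute ethanol replicate 4 or 5 or chronic ethanol replicate 1 or 6). Of these, Cdkn1a and Arrdc2, named here after their values were seen, fell by 1.86 and 1.07 on the log2 scale after ethanol and differed by -0.27 ± 0.17 and -0.02 ± 0.15 after saline. The difference of the changes had an unadjusted p of 0.00249 and 0.007 in edgeR, and an FDR of 0.969. In the cortex of saline mice all 20 tested targets were lower, with a median of -0.39, with Fkbp5 at -0.51. The Fkbp5 differences in dHPC and cortex differed at an unadjusted p of 0.00872 in edgeR (FDR = 0.773).

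Of 15 stress peptide and steroid receptor genes none passed an unadjusted p under 0.05. Crh, the hypothalamic stress peptide gene, was at 1.12, 0.64 and 1.16 CPM against 0.78, 1.10 and 1.00 CPM, and Npy at 33.9, 33 and 35.7 CPM against 35.4, 30.9 and 32.0 CPM. Metallothionein Mt2 was at 83.2, 110 and 92.0 CPM against 117, 87.7 and 91.8 CPM. Bdnf, the neurotrophin gene, was at 35.7, 37.9 and 43.0 CPM against 48.8, 28.3 and 42.5 CPM. These groups overlapped throughout.

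Chaperone genes were lower in 16 of 17 with a median of -0.06, and unfolded protein response genes in 20 of 22 with a median of -0.10, of which 7 had groups that did not overlap (7.08% of all genes were lower without overlap). Hspa5, the endoplasmic reticulum chaperone BiP, was at 261, 205 and 199 CPM in acute and 193, 215 and 173 CPM in chronic saline libraries (-0.20 ± 0.12). Hsp90b1 was at 326, 279 and 315 CPM against 278, 277 and 261 CPM (-0.17 ± 0.07), and Dnajc3 at 63.8, 64.2 and 65.5 CPM against 56.7, 61.2 and 51.2 CPM (-0.19 ± 0.07). The inducible Hsp70 gene Hspa1b was at 57, 41.2 and 34.4 CPM against 40.4, 36.1 and 32.3 CPM (-0.29 ± 0.17), and its groups overlapped. Apart from Cryab no member passed DESeq2's FDR.

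Genes of respiration lay on the higher side. All 13 protein-coding genes of the mitochondrial genome were higher, with a median of 0.12, and 9 had groups that did not overlap (8.01% of all genes were higher without overlap). They summed to 46529 to 49901 CPM in acute and 51800 to 52318 CPM in chronic saline libraries. mt-Co2, a subunit of cytochrome oxidase, showed 0.17 ± 0.05 (edgeR FDR = 0.582). Of 36 nuclear genes of complex I, 33 were higher, with a median of 0.07, and 7 had groups that did not overlap (8.01% as above). After ethanol both medians were 0.05, with 10 of 13 mitochondrial genome genes and 31 of 36 complex I genes higher. In vHPC both were at -0.13. In the cortex the mitochondrial genome was at 0.12 and complex I at -0.04. Postsynaptic scaffold genes had a median of 0.05, with Dlg4 (PSD-95) at 548, 516 and 543 CPM against 601, 583 and 581 CPM (0.14 ± 0.05). The 12 GABA-A receptor subunits and 15 ionotropic glutamate receptor genes had medians of 0.00 and -0.02.

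Blood genes had the largest median difference of the 32 lists. All 5 were lower without overlap (7.08% of all genes), with a median of -1.15. Hbb-bs, an adult beta-globin gene whose near-identical neighbours share its reads, was at 233, 450 and 195 CPM in acute and 164, 123 and 102 CPM in chronic saline libraries (-1.17 ± 0.31, edgeR FDR = 0.555). Without acute saline replicate 4, the highest library, the median was -0.66. After ethanol it was 0.03, with Hbb-bs at 120 to 219 CPM after 1 and 104, 103 and 304 CPM after 10 injections, in the cortex -0.35 and in vHPC -1.24. Libraries also hold blood left in the vessels of the core, and its part in the difference was not tested.

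Among glial and vascular lists, 13 of 14 microglia genes were higher by a median of 0.09, with C1qb at 27.4, 26.7 and 26.4 CPM against 29.5, 29.0 and 29.9 CPM. Astrocyte genes had a median of -0.13, with the water channel gene Aqp4 at 115, 117 and 111 CPM against 87.0, 80.6 and 108 CPM (-0.32 ± 0.10) and Sox9 at -0.25 ± 0.08. Of 11 mural cell and fibroblast genes 8 were lower, with a median of -0.16. Col3a1, a fibroblast collagen gene, was at 1.85, 1.95 and 2.10 CPM against 1.34, 1.10 and 1.25 CPM (-0.67 ± 0.16). Endothelial genes had a median of -0.03. None of these lists had a gene past either tool's FDR.

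Medians of several tissue lists depended on single libraries. Striatal genes had a median of 0.83 with all libraries and -0.71 without chronic saline replicate 5. Choroid plexus genes had a median of -0.49, and 0.07 without chronic saline replicate 6. Dentate granule neuron genes had a median of -0.09, and 0.07 without chronic saline replicate 5, whose dentate genes were at 0.67 times the acute saline mean. CA1 pyramidal neuron genes had a median of 0.15 and 0.21 without that library. Wfs1, which marks CA1 neurons, was at 131, 126 and 154 CPM in acute and 156, 192 and 188 CPM in chronic saline libraries (0.38 ± 0.10, edgeR FDR = 0.555, DESeq2 FDR = 0.0626). Its groups nearly touched between 154 and 156 CPM. Genes of immature granule neurons and dividing cells had a median of -0.07, with none of 14 at an unadjusted p under 0.05 in edgeR.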

How the data were processed

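Poly(A) RNA was sequenced from 62 samples of 16 mice, for dHPC and cortex as 75-base pairs with a non-directional kit. For vHPC a directional kit, another sequencer and longer reads were used. The authors trimmed with Cutadapt (5.0), used STAR (2.7.10a) on GRCm39 and counted pairs on Ensembl exons with featureCounts (2.0.6), set to reverse-stranded, adding multiply mapping and overlapping pairs to each gene. The deposited counts are raw, on 56415 genes, of which 13971 overlap an exon on the other strand in GENCODE M39.

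The members and gene lists were chosen with earlier results of these data known. Genes reaching 5 counts in 2 or more samples of either group were tested with edgeR (4.0.16, TMM, quasi-likelihood, FDR below 0.1; limma 3.58.1, R 4.3.3) on the groups of each comparison. DESeq2 (1.42.0), the study's tool, was an alternative. The code was tested on simulated data. CPM are TMM-scaled over the libraries of a region and not divided by length, so levels were not compared between genes. Differences are log2 fold changes with SE. The p-values measure the spread between 3 and 3 mice.

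Named were 12 higher and 12 lower genes, ranked on the larger p of the fits with and without chronic saline replicate 5 (mean of at least 1 CPM, groups not overlapping, no Gm or Rik symbol), the 2 genes of smallest p from each of 32 lists, and 15 by name. The parents of pseudogenes and some further list members were named after their values were seen. For 2 symbols on more than 1 gene ID the protein-coding ID was taken. Alternatives were DESeq2's size factors, other count filters, each library left out, a replicate block, all dHPC groups in one fit, removal of the exon length trend, limma voom with quality weights and genes without overlap on the other strand. List medians under every setting, the pseudogene summary and DESeq2 with libraries left out were added after seeing the data. Between dHPC and cortex, libraries of 1 mouse were treated as independent. Isoform counts were not used here. Of the named genes, 1 gene is not reported here by name.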

Additional observations from a re-analysis of the deposited data

Results flagged for a closer look

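In the acute ethanol group (n = 4), which enters only the side comparison, 3 of 97 named genes had 1 library far from the others, where chance gives about 1 in 20. All were in replicate 2: the co-chaperone gene Bag3 at 14 CPM against 8.83 to 9.44 CPM, Hspa5 at 411 CPM against 187 to 210 CPM, and Sgk1 at 96.9 CPM against 155 to 165 CPM. Groups of 3, which include both saline groups, are too small for this check. No difference between the ethanol and saline changes, or between the saline changes in dHPC and cortex, passed edgeR's FDR.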

How the results depend on the processing

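The count of genes past the FDR between 10 and 1 saline injections was 1 with edgeR and 144 with DESeq2, 5 with no filter on low counts, and 0 with all 4 dHPC groups in one fit or with the exon length trend removed. It was 0 without any 1 of the 6 libraries, and with DESeq2 ranged from 53 to 441 (78, 53 and 58 without acute saline replicates 2, 4 and 5, and 90, 441 and 355 without chronic saline replicates 2, 5 and 6). The ethanol count of 276 became 1187 with DESeq2, 1257 with no filter and 0 to 972 with 1 library left out. The cortex count of 2 became 173 with DESeq2, 336 with no filter, 0 with at least 10 counts in every sample and 0 to 169 with 1 library left out. The vHPC count of 0 became 385, 457 with no filter and 0 to 986. DESeq2 passed 2 genes for the difference between treatments and 34 for that between dHPC and cortex. The cause of these shifts was not tested. All saline values rest on 3 mice a group.

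With the replicate block the saline count was 0 and the blood median was -0.52 in place of -1.15. The numbers 2 and 5 occur in both saline groups but on different mice, and deviations from the group means correlated at -0.31 for number 2 and -0.0018 for number 5 (18603 genes), so the numbers do not pair the samples. The ethanol groups share 1 number, and the block could not be fitted there.

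The pseudogene median of 0.16 was 0.088 with the exon length trend removed. The striatal median of 0.83 ran from -0.71 to 1.36 with 1 library left out. Of 495 list medians under alternatives 476 moved by less than the spread. Of 780 values of single genes 729 kept direction and call, 26 passed and 6 no longer passed. The 19 that reversed all came from leaving out 1 library, with ranges of -0.023 to 0.49 for Cort, -0.020 to 0.52 for Gabrd, -0.032 to 0.27 for Rgs14, -0.22 to 0.59 for Pcp4, -0.63 to 1.71 for Gpr6, -0.94 to 1.57 for Rxrg, -0.13 to 0.059 for Fkbp5, -0.12 to 0.24 for Sgk1, -0.081 to 0.18 for Mt2, -0.25 to 0.11 for Crh and -0.13 to 0.23 for Bdnf.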
